A study of Mus musculus with 21 samples.

Results

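Egfr, Pdgfra, Sufu, Ptk2 and Yes1 are 5 genes of growth factor and kinase signalling, out of 4764 gene symbols named in the deposited lists of single-nucleotide variants (SNVs) of mouse embryonic stem cells (ESCs) and tumours. They were selected on measured values, the presence of at least 1 call annotated to each of them outside intergenic sequence, so that a call in each gene is the basis of the choice and not a result. Together they held 8 sites: 5 among 2402 gene-assigned sites of the ESC lists and 3 among 14392 gene-assigned sites of the tumour lists. The reads at the 8 sites are given below as a description, without a test.

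Egfr and Pdgfra encode receptor tyrosine kinases that bind epidermal growth factor and platelet-derived growth factor at the cell surface and pass the signal to the RAS-MAPK and PI3K relays. Ptk2 encodes focal adhesion kinase, which works with Src-family kinases, Yes1 among them, where integrins attach the cell to its matrix. Sufu encodes a negative regulator of the Hedgehog pathway that holds the GLI transcription factors back. Mouse ESCs depend on the control of these relays: PD0325901 blocks MEK, which lies downstream of receptor tyrosine kinases, and CGP77675 inhibits Src-family kinases, and both are ingredients of media used here.

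The series asked how culture conditions affect mutations in ESCs of the strain labelled C57BL6X129S6F1 and in tumours that arose in mice derived from such cells through tetraploid complementation. The ESC conditions, with 2 libraries each numbered 3 and 5, were SL (KO-DMEM with 15% FBS), 2iL (N2B27 with 3 µM Chir99021, an inhibitor of GSK3, and 1 µM PD0325901), A2iL (N2B27 with 3 µM Chir99021 and 1.5 µM CGP77675), LCDM (N2B27 with 3 µM Chir99021, 2 µM Dim and 2 µM Mih) and 2iL-F (the 2iL medium). All 5 media held 1000 IU of mouse LIF, and all but 2iL-F were used with feeder cells. The tumour groups were T-2iL-P9 (1 tumour), T-A2iL-P9 (3), T-A2iL-P14 (1), T-LCDM-P9 (2) and T-2iL-F-P9 (1), where P9 and P14 are used as in the labels. The ESC calls were made against mouse embryonic fibroblasts (MEFs) and the tumour calls against wild-type blood, both of the same labelled strain. An ESC library is 1 culture of a population of cells, and nothing in the labels says whether the libraries of a condition came from separate lines or whether the tumours came from separate mice.

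An ESC list held 1762 to 1858 calls at a median depth of 54 to 72 reads, and a tumour list held 3634 to 10325 calls at a median depth of 28 to 39 reads. The second T-LCDM-P9 tumour stood apart. It had 3634 calls and a median alternative-read fraction of 0.8, against 9752 to 10325 calls and 0.429 to 0.436 in the 7 other tumours. Per tumour, 95.0 to 97.5% of the calls carried an identifier of dbSNP, a catalogue of known variants, against 0% per ESC library. The names in the headers of the T-2iL-P9 and T-2iL-F-P9 lists differ from the labels, so an exchange of these tumours cannot be told apart from the assignment used here.

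The ESC calls of the 5 genes fell in 3 of 10 libraries. The 2iL library 5 held the calls of Egfr, Pdgfra and Ptk2, the SL library 5 held the Sufu call and the A2iL library 3 held the Yes1 call. The other 7 libraries, including both of LCDM and both of 2iL-F, held 0. By condition this was 1.5 ± 2.12 calls per library in 2iL, 0.5 ± 0.707 in A2iL, 0.5 ± 0.707 in SL and 0 in LCDM and 2iL-F (SD, n = 2 each). The spread within 2iL (3 calls in library 5 and 0 in library 3) was larger than the difference between any pair of conditions, and no test was run because the calls themselves chose the genes. The 3 calls of 2iL library 5 were 2.94% of its 102 gene-assigned calls that no other ESC library shared.

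**Figure D1:**
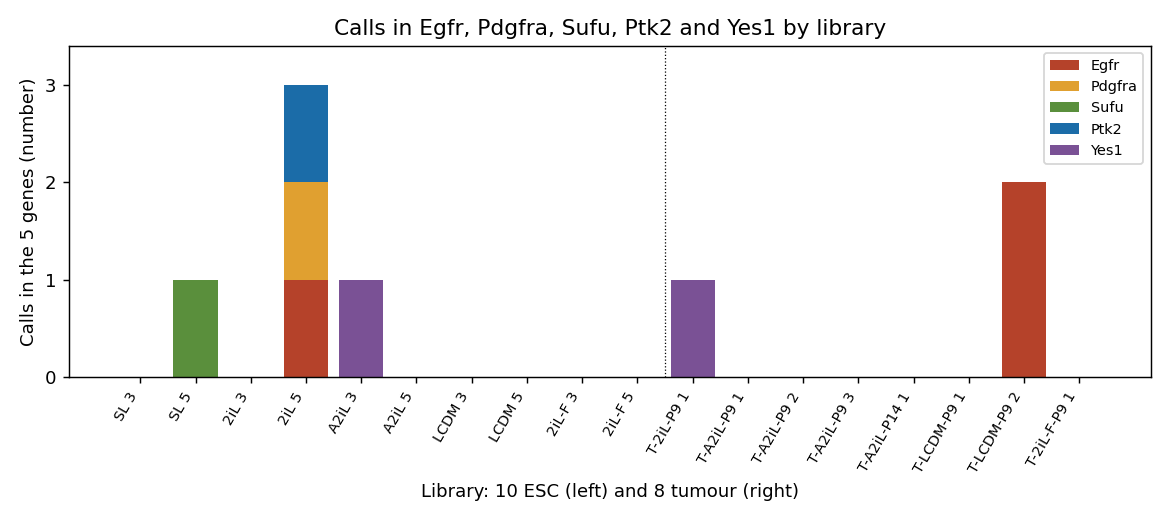
Number of calls in Egfr, Pdgfra, Sufu, Ptk2 and Yes1 (vertical axis, coloured by gene) in each ESC and tumour library (horizontal axis, a dotted line separating the 10 ESC libraries from the 8 tumours). The 2iL library 5 held 3 calls, the second T-LCDM-P9 tumour 2, and 3 libraries 1 each.

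All 5 ESC sites were private, that is, called in 1 ESC library only, where 34.3% of the gene-assigned ESC sites were. None had a read of the alternative base in the MEF control, none lay in a segmental duplication, and all 5 had a mean base quality of 37 for the alternative allele, the value that 55.6% of the ESC calls had. No other ESC library had any call within 10 kb of them, and the nearest call of another ESC library was 199227 to 491779 bp away. The ESC lists hold no calls closer together than 10017 bp, so a list with a call nearby could not show the same site, and no such call was there. Each of the 5 genes had 1 ESC site, as did 76.7% of the genes with any.

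Among the receptors, Pdgfra had the only call of the 5 genes in ESCs that changes a protein. It lay in exon 11 on chromosome 5 at position 75177674 (mm10) and was a G-to-T change, G1588T in the coding sequence of both annotated transcripts, written A530S in the protein. The alternative base was read 4 times among 89 reads of 2iL library 5, against 0 of 69 reads of the MEF control. That was 4.49% of the reads in 2iL library 5 (95% exact binomial interval 1.24 to 11.1%), and the 0 in the control allows a share of up to 4.35%. The interval of the 2iL library 5 therefore includes shares that the control depth could not have shown. A share this low ranked at the 9.14 percentile of the 175 private calls of that library, whose median fraction was 0.152. Protein-changing calls made up 12.4% of the private gene-assigned ESC sites, and 1 of the 5 here, and 1.42% of all protein-coding genes had such a site in any ESC library.

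The Egfr call of the ESCs was intronic, on chromosome 11 at position 16868387, 71.8% of the way along the gene, and changed C to T. It rested on 2 of 8 reads in 2iL library 5, against 0 of 14 in the MEF control. Its share of 25% (interval 3.19 to 65.1%) was the highest of the 5 sites and the least certain, and the control allows up to 21.4%. At this depth the site was not distinguishable from the share that its control allows.

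Of the kinases that act inside the cell, Ptk2 had a synonymous call and Yes1 an intronic one. The Ptk2 site, on chromosome 15 at position 73330872, was annotated as C339T and L113L, in exon 4 of one transcript and exon 5 of the other. It had 5 of 64 reads (7.81%, interval 2.59 to 17.3%) in 2iL library 5, against 0 of 43 in the MEF control, which allows up to 6.98%. The Yes1 site, on chromosome 5 at position 32645128 in an intron and inside a SINE repeat, changed C to T and had 3 of 39 reads (7.69%, interval 1.62 to 20.9%) in A2iL library 3, against 0 of 26 in the control, which allows up to 11.5%. Both shares overlapped what the control depth allows.

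Sufu, the Hedgehog regulator, had an intronic C-to-T call in SL library 5 on chromosome 19 at position 46483741, in a simple repeat 5063 bp before the end of the gene. The alternative base had 5 of 52 reads (9.62%, interval 3.2 to 21.0%) in SL library 5, against 0 of 43 in the control, which allows up to 6.98%. It ranked at the 32.1 percentile of the 134 private calls of that library.

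Of the 5 ESC sites, 4 had a low share of alternative reads, and Egfr lay above the median of the private calls. Their median fraction was 0.078 at a median depth of 52 reads, and 80.0% of them lay below 0.1. Over all 1465 private ESC calls the median fraction was 0.18 at a median depth of 32.0 reads, and 30.4% lay below 0.1. The median number of alternative reads was 4 in both. By substitution class, folded by strand, 4 of the 5 sites were C-to-T changes and the Pdgfra site was a C-to-A change, where C-to-T made up 33.3% of the private gene-assigned ESC sites.

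**Figure D2:**
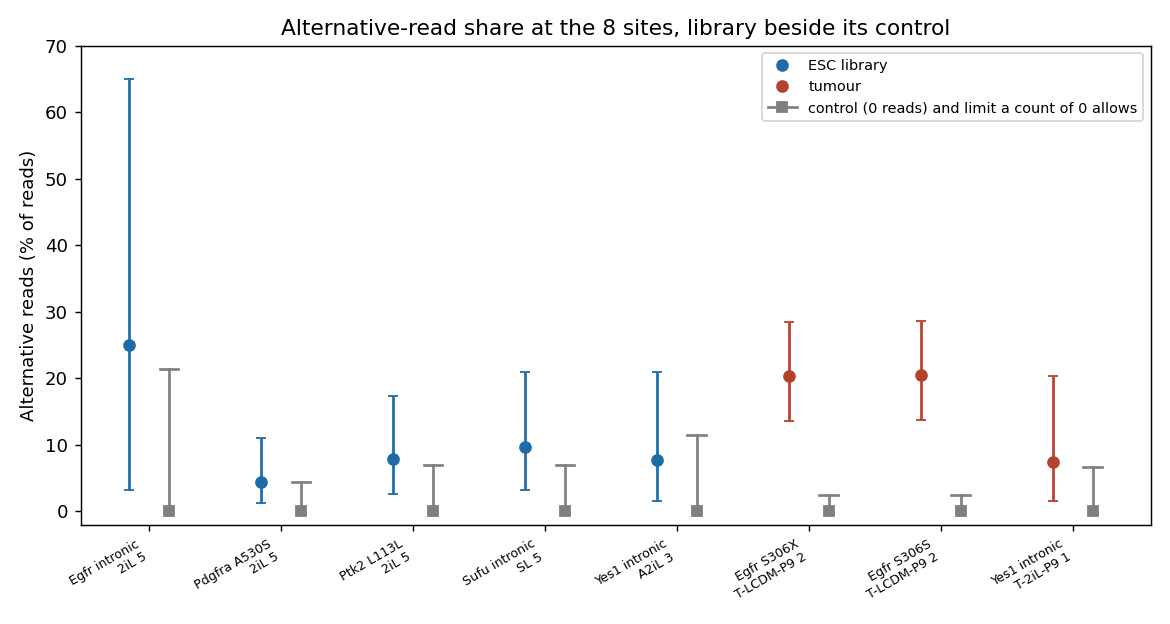
Share of alternative reads in percent (vertical axis) at each of the 8 sites (horizontal axis), with the ESC or tumour library as a circle with its 95% exact binomial interval and its control to the right as a grey square at 0 with a bar up to the share that a count of 0 allows. The pair of Egfr tumour calls, at 20.3 and 20.5%, is the only one whose interval lies wholly above the limit of its control (2.52%).

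In tumours, Egfr carried the only coding calls of the 5 genes. Both were in exon 8 on chromosome 11, at the adjacent positions 16871003 and 16871004, both in the second T-LCDM-P9 tumour and neither with a dbSNP identifier, as was the case for 4.61% of the gene-assigned tumour sites. The first was annotated as C917A, S306X, a stop gain in both transcripts. It had 25 of 123 reads (20.3%, interval 13.6 to 28.5%) in the tumour, against 0 of 119 in the blood control, which allows up to 2.52%. The second was annotated as A918T, S306S, synonymous, with 25 of 122 reads (20.5%, interval 13.7 to 28.7%) in the tumour, against 0 of 119 in the control. Both had a mean base quality of 37, and these sites were the most deeply read of the 8.

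The annotation treats each call alone, but both fall in codon 306. The reference codon that satisfies both annotated changes is TCA, for serine. With the first change alone it reads TAA, a stop, and with the second alone TCT, again serine. With both on 1 molecule it reads TAT, for tyrosine, the missense change S306Y. The lists do not record which reads carry both letters. The numbers of alternative reads, 25 at each position, were equal. Over all tumours the numbers were equal at 71.2% of 771 pairs of adjacent calls, where the largest difference was 8 reads. A pair found in several tumours was counted in each of them, and in 12 of the 771 both calls lacked a dbSNP identifier. In the second T-LCDM-P9 tumour the numbers were equal at 65.9% of 44 pairs. Among the coding sites of the tumour lists, 40 of 3588 shared a codon with another call of the same tumour, and so did 2 of the 9 stop-gain sites, the other being Ccdc36 Q445X, also in the second T-LCDM-P9 tumour.

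That tumour also sets the scale for the Egfr share. Its 183 calls without a dbSNP identifier had a median fraction of 0.203, with quartiles of 0.106 and 0.448, so the Egfr pair lay in the middle of them (percentiles 49.2 and 50.3). Its 3451 calls with an identifier had a median fraction of 0.917. The 183 included 42 missense, 22 synonymous and 3 stop-gain calls, and the other stop gains were Fam57a W78X with 8 of 94 reads and Sub1 R47X with 28 of 81 reads, which all 8 tumours shared. The first T-LCDM-P9 tumour held 0 calls in the 5 genes, so this group had 1 ± 1.41 calls per tumour (SD, n = 2).

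**Figure D3:**
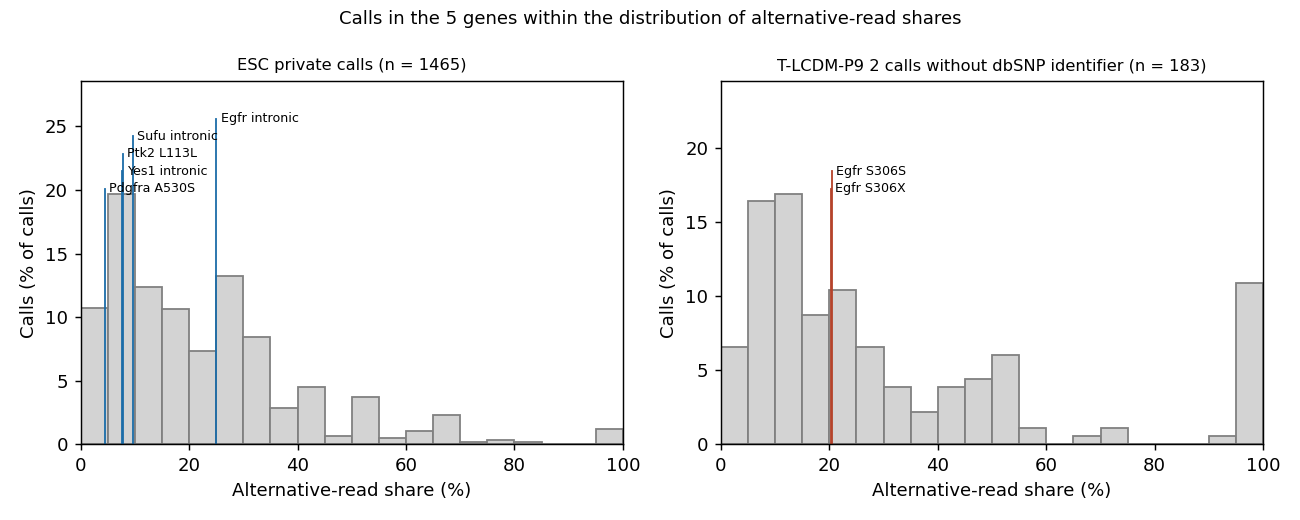
Percentage of calls (vertical axis) by share of alternative reads in percent (horizontal axis, bins of 5) for the 1465 private ESC calls (left) and the 183 calls without a dbSNP identifier of the second T-LCDM-P9 tumour (right), with vertical lines at the sites of the 5 genes. Of the ESC sites, 4 lie below 10% and Egfr at 25%, and both Egfr tumour calls lie beside the median of the right-hand distribution.

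The remaining tumour site was in Yes1, an intronic T-to-C change in an LTR repeat on chromosome 5 at position 32659151, in the T-2iL-P9 tumour and with a dbSNP identifier. It had 3 of 40 reads (7.5%, interval 1.57 to 20.4%) in the tumour, against 0 of 45 in the blood control, which allows up to 6.67%. The 10039 calls with an identifier of that tumour had a median fraction of 0.435, and the Yes1 call ranked at the 0.657 percentile among them. It was also 1 of 119 such calls (1.19%) that no other tumour shared, and these had a median fraction of 0.167 and a median of 3 alternative reads. All 3 tumour sites of the genes were in 1 tumour only, as were 26.4% of the gene-assigned tumour sites. That share differed by tumour. In the second T-LCDM-P9 tumour, which held the Egfr pair, 3000 of 3527 gene-assigned calls were in no other tumour, against 149 of 9896 in T-2iL-P9. Of the 183 calls without an identifier in the second T-LCDM-P9 tumour, 155 were in no other tumour. No site of these genes was called in both ESCs and tumours, and Pdgfra, Sufu and Ptk2 had no tumour call.

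No call lay inside Pdgfra in any tumour, but the calls on its distal side differed in the first T-LCDM-P9 tumour. These calls were noticed after the values were seen, and their genes are not among the 5. Depth is given here as tumour reads over control reads at a site, divided by the median of that ratio in the same tumour, so that 1 is the usual depth. At 7 sites of Kit, which encodes the stem cell factor receptor and lies next to Pdgfra, and 1 site of Tmem165, relative depth was 6.19 to 13.2 in the first T-LCDM-P9 tumour, with 65 to 931 reads. In the 6 other tumours with calls there, the median relative depth over these sites was 1.06 to 1.26.

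At the same 8 sites, all with dbSNP identifiers, 3.7 to 8.21% of the reads of the first T-LCDM-P9 tumour carried the alternative base, against 38.7 to 57.1% of the summed reads of the other tumours. Each of the 8 was lower by a two-sided Fisher's exact test of reads, with Benjamini-Hochberg adjusted p of 1.89e-79 to 0.00408. In that tumour 16 of 9433 sites were called lower, 0.17% of those tested, and 0 were called higher. Only sites with a call in that tumour were tested. At its median depth of 30 reads a share this low leaves few alternative reads, and such a site may lack a call. The 0.17% therefore does not measure how common a lowered share is, and deeply read sites are favoured. The test compares libraries rather than conditions and takes reads as independent, and the tumour is 1 sample.

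The first of the 8 sites lay 409 kb beyond the end of Pdgfra and the last 597 kb further, on chromosome 5 from position 75606997 to 76204011. The Kit sites ended at position 75654409, and that tumour had no call between there and the Tmem165 site. These are positions of calls, so where the high depth begins and ends, and whether it is continuous, was not measured. On the proximal side, the 6 sites of Lnx1 and Fip1l1, the nearest 466 kb before Pdgfra, had a relative depth of 0.838 to 1.44 and an alternative share of 32.0 to 64.4% in the same tumour, and 0 of 6 were called. Over all sites tested in that tumour 0.17% were called. Pdgfra itself (positions 75151322 to 75198206) lies in the 922 kb between both sides where no tumour has a call, so its own depth was not measured. Whether the high depth extends into Pdgfra was not tested.

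**Figure D4:**
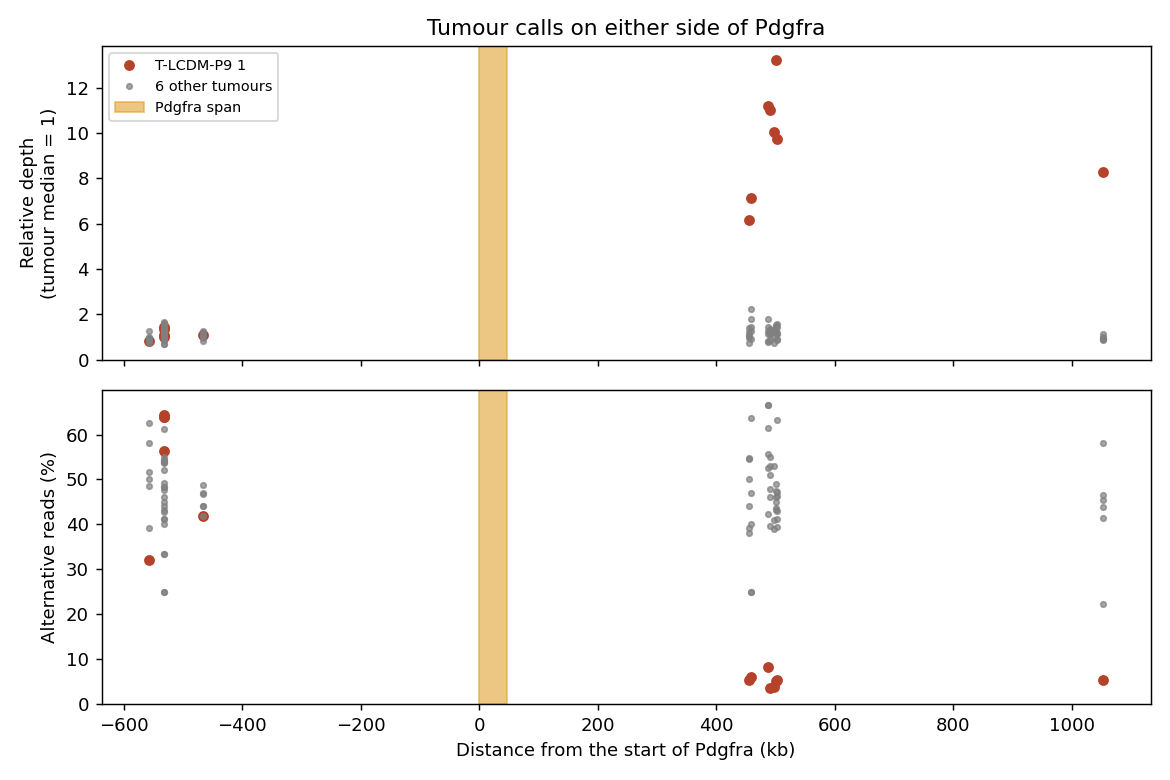
Relative depth (upper panel, 1 being the median of the tumour) and share of alternative reads in percent (lower panel) at tumour calls with dbSNP identifiers, by distance in kb from the start of Pdgfra (shaded). The first T-LCDM-P9 tumour (large points) has a relative depth of 6.19 to 13.2 and a share of 3.7 to 8.21% at the 8 sites on the right. On the left its relative depth lies among the 6 other tumours (small points). Its share there, 32.0 to 64.4%, lies above or below their range at most sites, none of which was called.

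In the first T-LCDM-P9 tumour the calls flanking Yes1, Sufu and Ptk2 had a median relative depth near 1. Within 1 Mb of Yes1, on the same chromosome, the median was 0.81 and 0 of 4 tested sites were called. Around Sufu the median was 0.959 (0 of 24 called) and around Ptk2 it was 1.12 (0 of 36 called). Over all sites tested in that tumour 16 of 9433 (0.17%) were called, so counts of 0 among so few sites carry little information. Egfr had no call with a dbSNP identifier within 1 Mb in any of the 8 tumours, a property it shared with 33.0% of autosomal protein-coding genes over 7 tumours and 78.9% in the second T-LCDM-P9 tumour. The Egfr pair itself had a relative depth of 1.07 at both positions in the second T-LCDM-P9 tumour. The nearest call of another tumour, without an identifier, was in an intron of Fbxo48, 83095 bp from the pair, with a relative depth of 1.26 in the first T-LCDM-P9 tumour.

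The wider pathways of the 5 genes were counted over 6 lists of 90 genes, which include the 5. A site was found for 10 of the 90 (11.1%) in ESCs and 15 (16.7%) in tumours, where 6.93% and 15.4% of 21900 protein-coding genes had one. Since the 5 genes were chosen for their calls, the counts without them are the ones to read: 5 of 85 (5.88%) in ESCs and 13 of 85 (15.3%) in tumours, near the background in both. By list and without the 5 genes, a site in ESCs was held by 1 of 14 genes for EGF ligands and ErbB receptors (Erbb2), 1 of 9 for PDGF and related receptors (Csf1r), 1 of 14 for Hedgehog (Gli2), 1 of 13 for focal adhesion and Src-family kinases (Lyn) and 0 of 25 for the RAS-MAPK and PI3K relay. The list of FGF, VEGF and other receptors had 1 of 10, and that gene was Insr, the insulin receptor, so none of its FGF and VEGF receptors held a site. In tumours the counts were 2, 3, 1, 3, 3 and 1 in the same order, the last again Insr.

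**Figure D5:**
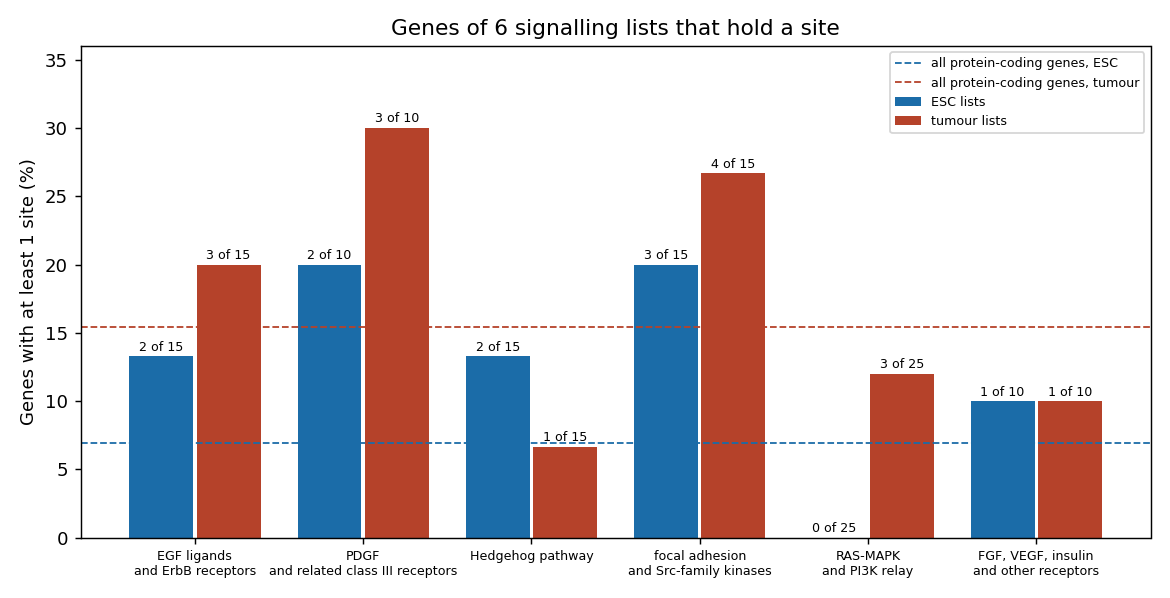
Percentage of the genes of each of 6 signalling lists with at least 1 site (vertical axis) in the ESC lists and in the tumour lists (bars, labelled with counts), with dashed lines at the share of all protein-coding genes (6.93% for ESCs, 15.4% for tumours). The bars include the 5 genes, which 4 of the 6 lists hold, and in the rightmost list the gene with a site is Insr.

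Outside the 5 genes, 2 genes of the lists had a protein-changing call in ESCs. Gli2, a transcription factor at the end of the Hedgehog pathway that Sufu restrains, had R213Q in exon 6 in LCDM library 3, with 3 of 24 reads (12.5%, interval 2.66 to 32.4%), against 0 of 33 in the control. Lyn, a Src-family kinase like Yes1, had I242F in exon 8 within a segmental duplication. It was read in 4 of 99 reads (4.04%) of SL library 3, against 0 of 80 in the MEF control. The same Lyn change was in 2 tumours, with 5 of 88 reads (5.68%) in T-2iL-F-P9 and 4 of 70 (5.71%) in the first T-A2iL-P9 tumour, against 1 of 82 in the blood control. These calls rested on 3 to 5 alternative reads, and the ESC sites of the 5 genes on 2 to 5.

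By the pathway annotation deposited with the calls, 4 of the 5 genes were in pathways in cancer. Egfr, Pdgfra and Ptk2 shared focal adhesion and the regulation of the actin cytoskeleton, Egfr and Ptk2 shared ErbB signalling, and Egfr and Yes1 shared the adherens junction.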

How the data were processed

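SNV lists of 18 of the 21 samples were read. Per the labels' protocols, genomic DNA was sheared and captured with Agilent SureSelect reagents, and reads were handled with BWA, SAMtools and Picard on mm10, per the submitters' processing notes. The design text names ATAC-seq for the tumours, so their assay is not settled here, and no source used here names the program that called the SNVs. Each deposited line, per the file headers, holds the genotype, the read counts per allele, mean base quality, depth, alternative-read fraction and somatic status of a library and its control. The MEF and blood samples have no list of their own. The MEF sample entered only as the control of the ESC lists. By the names in the headers, blood sample 2 was the control of all tumour lists, and blood sample 1 was in none.

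Sites were taken as annotated in the deposited lists, where the gene was Egfr, Pdgfra, Sufu, Ptk2 or Yes1 and the region was not intergenic. The members and the pathway lists were chosen with earlier results of these data known. Named genes of the pathway lists were those with a protein-changing ESC call, a stop or splice call in a tumour, or a protein-changing tumour call without a dbSNP identifier. Any further gene named was chosen after its values were seen.

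Shares of reads have 95% exact (Clopper-Pearson) intervals, and a control count of 0 allows up to 3 counts of its reads. Intervals and limits cover counting error only, since reads without molecular identifiers are not independent molecules. The reference codon was found by enumerating all codons that give both annotated changes. For each tumour, every site also called in at least 3 others was tested against their summed reads (two-sided Fisher's exact test, Benjamini-Hochberg over all sites of that tumour), leaving the second T-LCDM-P9 tumour out of the pool. No site of the 5 genes was called in more than 1 tumour, so the test gave no value for them. Relative depth used the median over sites with at least 10 control reads. Gene spans came from a RefSeq table of GRCm38.p6, the assembly of mm10. Scripts ran in Python 3.11.15 with pandas 2.3.3, NumPy 2.4.6, SciPy 1.17.1 and matplotlib 3.10.9 and were tested on simulated data. No genome sequence was used here.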

Additional observations from a re-analysis of the deposited data

How the results depend on the processing

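The 5 ESC sites were 2 with at least 5 alternative reads, 3 outside segmental duplications and repeats, 2 when only exonic and splicing sites were kept and 2 without 2iL replicate 5 (added after seeing the data). The private sites gave the same counts under the first 3 settings, and the Pdgfra change was lost at 5 alternative reads. The Yes1 tumour site was lost under each of those 3 settings (0 sites). The 2 Egfr tumour sites were 0 without T-LCDM-P9 replicate 2 and 1 when adjacent calls of a codon were counted once, both added after seeing the data. Leaving out each replicate gave 0 to 3 calls per library in 2iL, 0 to 1 in SL and A2iL, 0 to 2 in T-LCDM-P9 and 0 in LCDM, 2iL-F and T-A2iL-P9. The 8 sites beside Pdgfra called lower were 6 to 8 under the alternatives added for them, 6 where every tumour needed at least 20 reads. Of 75 alternative values, 53 stayed within 1.5 times the count reported and 22 moved beyond it. Many of the 53 could not have moved, so the tally is no measure of robustness. All 8 sites had a base quality of 37, 0 alternative control reads and a control depth of at least 14, so filters on these removed none. Groups with 0 calls stay at 0 without a replicate, and the private ESC sites are the same sites as all ESC sites. Variations of the fraction test at the 5 genes were not run because no site was eligible. No paired analysis was possible because the counts per condition come from no test: the ESC conditions share the replicate numbers 3 and 5, but the calls themselves chose the genes. Depth limited the 5 ESC sites and the Yes1 tumour site, whose intervals overlap the share that their control reads allow.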

Other observations

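In the first T-LCDM-P9 tumour, 14 of the 16 sites called lower lay on chromosome 5, the chromosome of Pdgfra, Kit and Yes1. The test covers only sites called in that tumour and favours deeply read ones. Besides the 8 sites beside Pdgfra, 6 lay between positions 8798637 and 17991439, in Abcb1b, Cd36 and Gnat3, with a relative depth of 3.82 to 6.22. At the Abcb1b site, a drug efflux transporter gene, 24 of 321 reads (7.48%) carried the alternative base in that tumour, against 44.9% in the others (two-sided Fisher's exact test, adjusted p = 2.58e-27). At the Gnat3 site 28 of 335 reads (8.36%) did, against 49.3% in the others (the same exact test, adjusted p = 1.04e-31). Ift52 and Crybg3, on other chromosomes, were called lower at a relative depth of 0.892 and 0.927. Over 4384 windows of 1 Mb with at least 3 calls in a tumour, the window with Kit had the highest median relative depth (10), and the next was 2.66 in T-2iL-F-P9. A window median can hide sites of higher depth: the 6 sites in Abcb1b, Cd36 and Gnat3, at 3.82 to 6.22, were each above 2.66. Those 6 were picked by the fraction test, and the depth at the other calls around them was not examined. Beyond Tmem165 the next site tested in the first T-LCDM-P9 tumour lay 11.3 Mb away, in Ugt2a2 and Ugt2a1, with a relative depth of 0.724. Calls between them that were not tested were not examined.

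Erbb2, the receptor that pairs with Egfr, had an intronic site that all 10 ESC libraries carried, at 31.9 to 56.2% of the reads, against 0 of 40 in the MEF control. It was chosen after its values were seen.

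Nf1, a negative regulator of RAS, had an intronic call without a dbSNP identifier in the second T-LCDM-P9 tumour, the tumour of the Egfr pair. It had 16 of 76 reads (21.1%) in the tumour, against 0 of 77 in blood, at a mean base quality of 12, against 37 at both Egfr positions. It too was chosen after its values were seen.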
